A study of Mus musculus with 28 samples.

Results

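Hybrid dendritic cells from mice with an altered Zeb2 enhancer were set against hybrid dendritic cells in which that enhancer was not altered. The first group was labelled Irf8 +32H/H Zeb2 -165D123 and the second Irf8 +32H/H, so both were homozygous (H/H) for an altered Irf8 enhancer at +32 kb and differed in the Zeb2 enhancer at -165 kb. Each group had 2 libraries, chosen by their labels, which makes 4 of the 28 libraries in the series. All 4 belong to experiment 2, whose 12 libraries also held hybrid cells from H/H mice without Nfil3 (Nfil3-/-) and type 1 conventional dendritic cells (cDC1) from H/H mice with and without Nfil3 and from WT mice. Experiment 1, with 16 further libraries, supplied WT cDC1 and type 2 conventional dendritic cells (cDC2), and H/H hybrid cells and cDC1. All cells were sorted from the spleen of C57BL/6 mice, and RNA was measured in bulk. The sort gates, the age and number of the mice and the exact sequence change in either enhancer are not given in the sources used here. The submitters call the 2 libraries of a group biological duplicates without saying whether each came from its own animal, so p-values measure the spread between these samples.

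Zeb2 is a zinc finger repressor that favours the cDC2 and plasmacytoid fates of dendritic cell progenitors, whereas Irf8 with its partner Batf3 sustains cDC1. In mouse progenitors Nfil3 lowers Zeb2 through the -165 kb enhancer, at sites that C/EBP factors also bind, and this enhancer is known for driving Zeb2 in myeloid cells. cDC1 are known for presenting antigen from dead cells to CD8 T cells, and cDC2 for presenting antigen to CD4 T cells.

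Library totals in experiment 2 ran from 17.5 to 22.7 M counts. Values are counts per M of the scaled library (CPM), log2 fold changes are Zeb2 -165D123 over H/H, and genes were called at an adjusted p below 0.05 over 14504 genes tested. A value after ± is the SE for a log2 fold change and the SD of 2 libraries for CPM. Xist had 6668 counts in Zeb2 -165D123 replicate 2, which had no Ddx3y counts, and 0 to 8 counts in the other 3 libraries, which had 1466 to 1651 Ddx3y counts. The libraries of the Zeb2 -165D123 group thus came from different sexes by these genes, and both H/H libraries carried the Y-linked transcript. Leaving out Zeb2 -165D123 replicate 2 removes that contrast, and the counts of called genes, of the main lists and of the placement between WT lineages are given without it.

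Zeb2 transcript was lower in the cells with the altered enhancer (ENSMUSG00000026872, GRCm38 chromosome 2, 44983632 to 45117395, minus strand). It had 10.3 and 19.6 CPM in Zeb2 -165D123 hybrid cells, against 38.6 and 46.9 CPM in H/H hybrid cells, from 179 and 431 counts against 711 and 832. The groups did not overlap, which held for 50.1% of all genes tested, and the Zeb2 -165D123 libraries differed from each other more than the H/H libraries did. The log2 fold change was -1.51 ± 0.26 (SE), with an adjusted p of 0.00555. The fall passed the test without either library of either group and missed it when only the 4 libraries compared entered the fit (adjusted p = 0.0681). What remained was above the levels in cDC1, where Zeb2 averaged 6.89 ± 0.463 CPM in H/H and 0.733 CPM in WT cells (n = 2 libraries each). Of the 6 genes tested within 2 Mb of Zeb2, Zeb2 itself was the 1 that was called. The next gene, Gtdc1, stood at 3.68 and 3.81 CPM in Zeb2 -165D123 and 6.03 and 5.13 CPM in H/H cells (adjusted p = 0.265). Zeb2os, antisense to Zeb2, had 15 and 20 counts in Zeb2 -165D123 cells and 21 and 33 in H/H cells, and since the use of strand in counting is not stated, its reads and those of Zeb2 cannot be told apart.

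The other members of the Zeb, E protein and Id list were not called by edgeR's quasi-likelihood test. The list had 8 of 9 genes tested, of which 4 had an unadjusted p below 0.05, and DESeq2 called 1 higher and 2 lower. Over all 14504 genes tested, 2327 had an unadjusted p below 0.05 and 4.03% were called by edgeR. Zeb1, a paralogue of Zeb2, had 37.9 and 37.8 CPM in Zeb2 -165D123 cells against 34.2 and 31.7 CPM in H/H cells. Id2, an inhibitor of E proteins that Zeb2 is known to repress, had 1799 and 1569 CPM in Zeb2 -165D123 cells, against 1304 and 1071 CPM in H/H cells. The Id2 groups did not overlap, and the difference missed the threshold (log2 fold change 0.50 ± 0.144, adjusted p = 0.0617). Tcf4, an E protein, stood at 37.9 and 42.5 CPM in Zeb2 -165D123 against 50.7 and 50.9 CPM in H/H cells (adjusted p = 0.163). The groups overlapped for Nfil3, at 52.1 and 45.1 CPM in Zeb2 -165D123 and 41.5 and 55.3 CPM in H/H cells, with a log2 fold change of 0.0043 ± 0.157.

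Across the transcriptome 584 of 14504 genes were called, which is 4.03%. Of these, 324 were higher in Zeb2 -165D123 cells (2.23%) and 260 were lower (1.79%). At least 2-fold differences were held by 158 of the higher genes (1.09% of those tested) and 128 of the lower (0.883%). On the autosomes 318 were higher and 243 lower. In bulk RNA, fewer cells of a type and less RNA per cell cannot be told apart, nor can more of either. The counts depended on having both libraries of each group. Without Zeb2 -165D123 replicate 1 they were 140 higher and 121 lower, and without replicate 2 they were 109 and 99. Without H/H replicate 1 they were 75 and 53, and without H/H replicate 2 they were 116 and 141.

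Among the 12 largest falls were receptors, enzymes and a signal transducer of myeloid cells. Ace, angiotensin-converting enzyme, which patrolling monocytes are known to carry, had 0.345 and 0.408 CPM in Zeb2 -165D123 cells, against 15.5 and 13.5 CPM in H/H cells. That is a 37.7-fold fall (log2 fold change -5.24 ± 0.413, adjusted p = 1.96e-06), the largest of the 12. Ccr2, the chemokine receptor for CCL2 (ENSMUSG00000049103, chromosome 9, 124101950 to 124113557, plus strand), had 7.82 and 8.39 CPM in Zeb2 -165D123 cells, against 64.3 and 60.6 CPM in H/H cells. It fell 7.69-fold (adjusted p = 3.78e-08) and lay below the 38.7 ± 0.937 CPM of H/H cDC1 as well. The lysozyme gene Lyz1 had 8.91 and 8.39 CPM in Zeb2 -165D123 against 45.6 and 53.3 CPM in H/H cells, and reads from its near-identical neighbour Lyz2 may be split between them. Stat4, a transducer of IL-12 signals, had 2.41 and 1.95 CPM in Zeb2 -165D123 and 12.7 and 10.7 CPM in H/H cells (adjusted p = 0.000101). Cd7, Ccl9, Abca9, Cd300lb, Pltp, Sirpb1a and Sirpb1c were also among the 12, which fell 3.85-fold or more. The call of Abca9 was lost without each of the 4 libraries, and that of Cd300lb without H/H replicate 1.

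The 12 largest rises joined 1 cDC1 gene to several that splenic macrophages are known to express. Clnk, an adaptor related to SLP-76 (ENSMUSG00000039315, chromosome 5, 38706462 to 38876812, minus strand), had 19.2 and 19.5 CPM in Zeb2 -165D123 cells, against 2.72 and 2.82 CPM in H/H cells. Its 6.98-fold rise (log2 fold change 2.80 ± 0.19, adjusted p = 3.1e-07) brought it near the level of H/H cDC1 (17.0 ± 3.38 CPM) and WT cDC1 (20.6 CPM). C6, a terminal complement component, had 10.3 and 13.3 CPM in Zeb2 -165D123 against 1.41 and 0.959 CPM in H/H cells. Ccr3, the eotaxin receptor, had 22.7 and 17.6 CPM in Zeb2 -165D123 against 3.10 and 1.97 CPM in H/H cells. Slpi, a secreted protease inhibitor, had 57.0 and 60.5 CPM in Zeb2 -165D123 and 10.6 and 6.38 CPM in H/H cells (adjusted p = 0.00264). Igf1 and Mrc1, the mannose receptor, rose as well, with log2 fold changes of 2.71 each. The others were Upp1, Abca13, Fcna, Cd5l, Slc45a3 and C1qc. In WT cells of experiment 1, 8 of the 12 were higher in cDC2 and 1, Clnk, was higher in cDC1. The Fcna and Cd5l calls were lost without each of the 4 libraries, that of Abca13 too, that of Upp1 without either H/H library, and that of Ccr3 without H/H replicate 2.

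**Figure D1:**
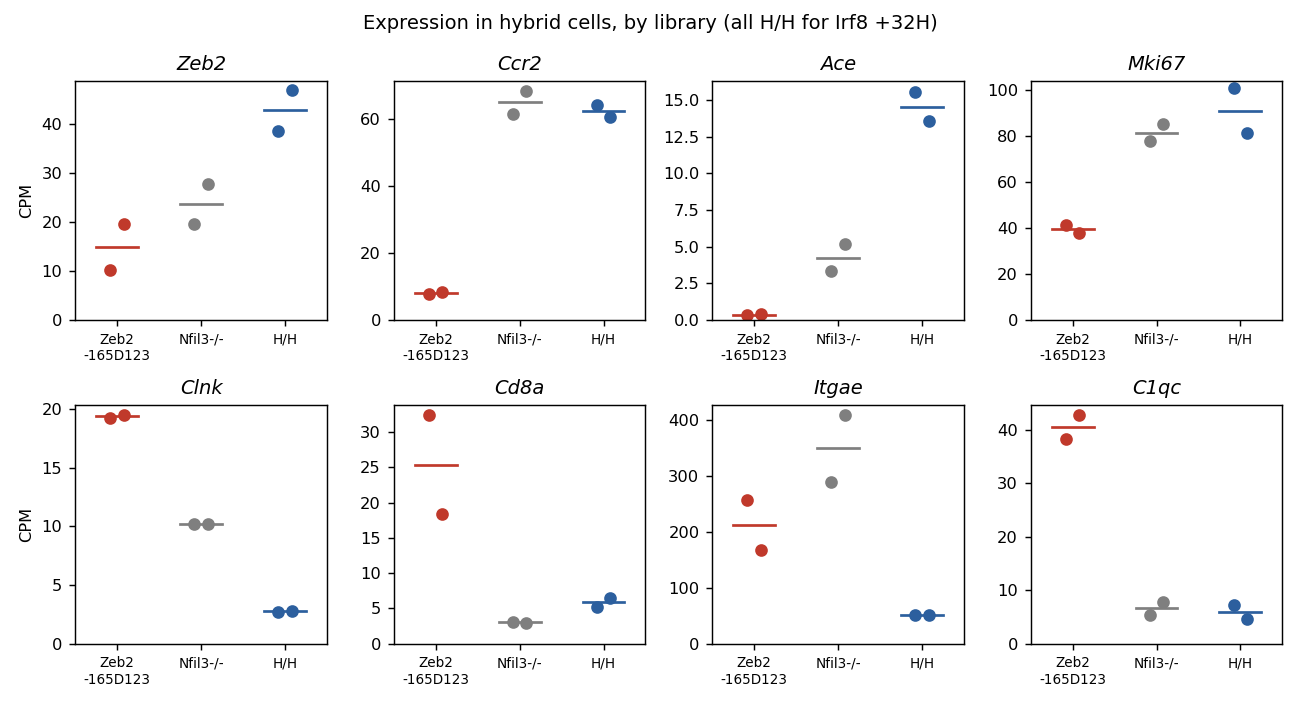
CPM of 8 genes in each hybrid library (points; bars are means of 2 libraries), for Zeb2 -165D123, Nfil3-/- and H/H hybrid cells, on linear axes from 0. Zeb2, Ccr2, Ace and Mki67 were lower in both Zeb2 -165D123 libraries than in both H/H libraries, and Clnk, Cd8a, Itgae and C1qc were higher.

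A part of the cDC1 genes rose, to an extent that differed from gene to gene. Of 28 cDC1 markers 27 were tested, 11 rose, none fell (0 lower at an unadjusted p below 0.05 or by DESeq2), and 26 had a positive log2 fold change, beside 2.23% of all genes called higher. Their median log2 fold change was 0.57, against -0.0016 over all genes tested. Gcsam, a germinal centre-associated adaptor that marks cDC1 here, had 94.0 and 78.1 CPM in Zeb2 -165D123 cells, against 21.1 and 18.6 CPM in H/H cells (adjusted p = 1.73e-07). Its mean of 86.0 CPM was short of the 161 CPM of H/H cDC1. Itgae, the integrin chain CD103, had 257 and 167 CPM in Zeb2 -165D123 cells, against 52.1 and 50.6 CPM in H/H cells, and H/H cDC1 averaged 72.5 CPM. For Itgae the cells with the altered Zeb2 enhancer thus stood above cDC1 of the same Irf8 genotype, while for Gcsam they stood below it. Cd8a, the coreceptor chain of splenic cDC1, had 32.4 and 18.4 CPM in Zeb2 -165D123 cells, against 5.21 and 6.49 CPM in H/H cells (log2 fold change 2.11 ± 0.273, adjusted p = 0.00181). Those Cd8a levels were below the 86.7 ± 9.21 CPM of H/H cDC1 and the 515 CPM of WT cDC1.

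Xcr1 and Clec9a did not pass the test. Xcr1, the chemokine receptor used to identify cDC1, had 476 and 404 CPM in Zeb2 -165D123 cells and 376 and 327 CPM in H/H cells (adjusted p = 0.159). Clec9a, the receptor for actin of dead cells, had 177 and 191 CPM in Zeb2 -165D123 against 182 and 174 CPM in H/H cells. The groups of Clec9a overlapped. The other markers called were Cd24a, Dkk3, Plpp1, Cxcr3, Snx22, Ifi205 and Btla, with log2 fold changes from 0.53 for Btla to 1.54 for Cd24a. Irf8 itself had 518 and 478 CPM in Zeb2 -165D123 and 336 and 345 CPM in H/H cells, a 1.46-fold difference (adjusted p = 0.0356) that was no longer called without any 1 of the 4 libraries (adjusted p from 0.114 to 0.294). Batf3, its partner in cDC1, had 114 and 107 CPM in Zeb2 -165D123 against 88.1 and 93.3 CPM in H/H cells (adjusted p = 0.301). Without either Zeb2 -165D123 library 6 (replicate 1) and 8 (replicate 2) of the cDC1 markers were called, and without either H/H library 8 (replicate 1) and 6 (replicate 2).

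A part of the cDC2 markers fell, and Ltb rose. Of 28 markers 27 were tested, 8 fell, 1 rose and 23 had a negative log2 fold change, beside 1.79% of all genes called lower. The list's median was -0.57. Cx3cr1, the fractalkine receptor, had 1.32 and 1.04 CPM in Zeb2 -165D123 cells, against 10.1 and 7.45 CPM in H/H cells (log2 fold change -2.90 ± 0.306, adjusted p = 6.57e-05). Tlr7, the endosomal sensor of single-stranded RNA, had 9.66 and 10.8 CPM in Zeb2 -165D123 against 28.4 and 21.2 CPM in H/H cells. Cd4, S100a4, Cd7, Sirpb1a and Sirpb1c also fell. Mgl2, a galactose-binding lectin, had no counts in either Zeb2 -165D123 library and 12 and 13 counts in the H/H libraries, so it was at least 9.1-fold lower, with 3 counts over the Zeb2 -165D123 group as the floor. Its call was lost without any of the 4 libraries. Sirpa and Itgam did not pass the test. Sirpa had 151 and 160 CPM in Zeb2 -165D123 and 178 and 188 CPM in H/H cells (adjusted p = 0.495), and Itgam (CD11b) had 45.6 and 48.4 CPM in Zeb2 -165D123 and 63.5 and 52.5 CPM in H/H cells (adjusted p = 0.465). Both stayed above H/H cDC1, where Sirpa averaged 22.4 ± 0.636 CPM and Itgam 9.90 ± 1.43 CPM. The marker that rose was Ltb, lymphotoxin beta, at 105 and 93.7 CPM in Zeb2 -165D123 against 34.8 and 49.1 CPM in H/H cells (adjusted p = 0.025, lost without either Zeb2 -165D123 library or H/H replicate 1). The Tlr7 call was lost without replicate 1 of either group. Irf4, the factor that cDC2 use, overlapped between the groups at 55.8 and 39.0 CPM in Zeb2 -165D123 and 38.1 and 41.9 CPM in H/H cells. Without Zeb2 -165D123 replicate 1 or H/H replicate 1, 5 of the cDC2 markers were called lower, and without replicate 2 of either group 6 were.

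Lectins and SIRP receptors held neighbours that moved in opposite directions. Of 31 genes tested 7 fell and 3 rose, beside 1.79% of all genes called lower and 2.23% called higher, and the median was -0.41. With 1 library left out 4 or 5 were called lower and 1 or 2 higher (5 and 2 without Zeb2 -165D123 replicate 2). Sirpb1a, an activating SIRP receptor, had 46.5 and 45.7 CPM in Zeb2 -165D123 against 166 and 190 CPM in H/H cells. Sirpb1b and Sirpb1c fell with it (log2 fold changes -1.41 and -2.50), and since these are close paralogues, reads may have been shared among them. Clec4a1, Clec4a2 and Clec4b1, of the DCIR and Dectin-2 cluster, also fell, with log2 fold changes from -1.91 to -0.83. Clec4n, which encodes Dectin-2 in the same cluster, rose to 29.9 and 29.1 CPM in Zeb2 -165D123 cells, against 13.3 and 9.53 CPM in H/H cells (adjusted p = 0.00451, lost without H/H replicate 2). Ly75 (DEC-205), a cDC1 endocytic receptor, rose too, to 56.1 and 57.5 CPM in Zeb2 -165D123 against 35.7 and 35.2 CPM in H/H cells.

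Chemokine receptors moved in both directions, and the integrin chains called were all higher. Of 18 receptors tested 3 fell, among them Ccr2 and Cx3cr1, and 2 rose, namely Ccr3 and Cxcr3, beside 1.79% of all genes called lower and 2.23% called higher. With 1 library left out 3 were called lower and 0 to 2 higher (3 and 1 without Zeb2 -165D123 replicate 2). Ccr7, which takes mature dendritic cells to lymph nodes, had 739 and 657 CPM in Zeb2 -165D123 and 648 and 530 CPM in H/H cells (adjusted p = 0.647). Of 16 integrin chains tested, Itgae, Itgad and Itga1 rose and none fell, and 2 or 3 were called higher with 1 library left out (3 without Zeb2 -165D123 replicate 2). Itgad, CD11d, is known from splenic macrophages and had 24.6 and 24.5 CPM in Zeb2 -165D123, against 5.27 and 3.95 CPM in H/H cells (log2 fold change 2.41 ± 0.297). Ccl2, the ligand of Ccr2, fell with its receptor, to 57.1 and 39.3 CPM in Zeb2 -165D123 against 121 and 96.6 CPM in H/H cells (adjusted p = 0.0312, lost without Zeb2 -165D123 replicate 2 or either H/H library).

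**Figure D2:**
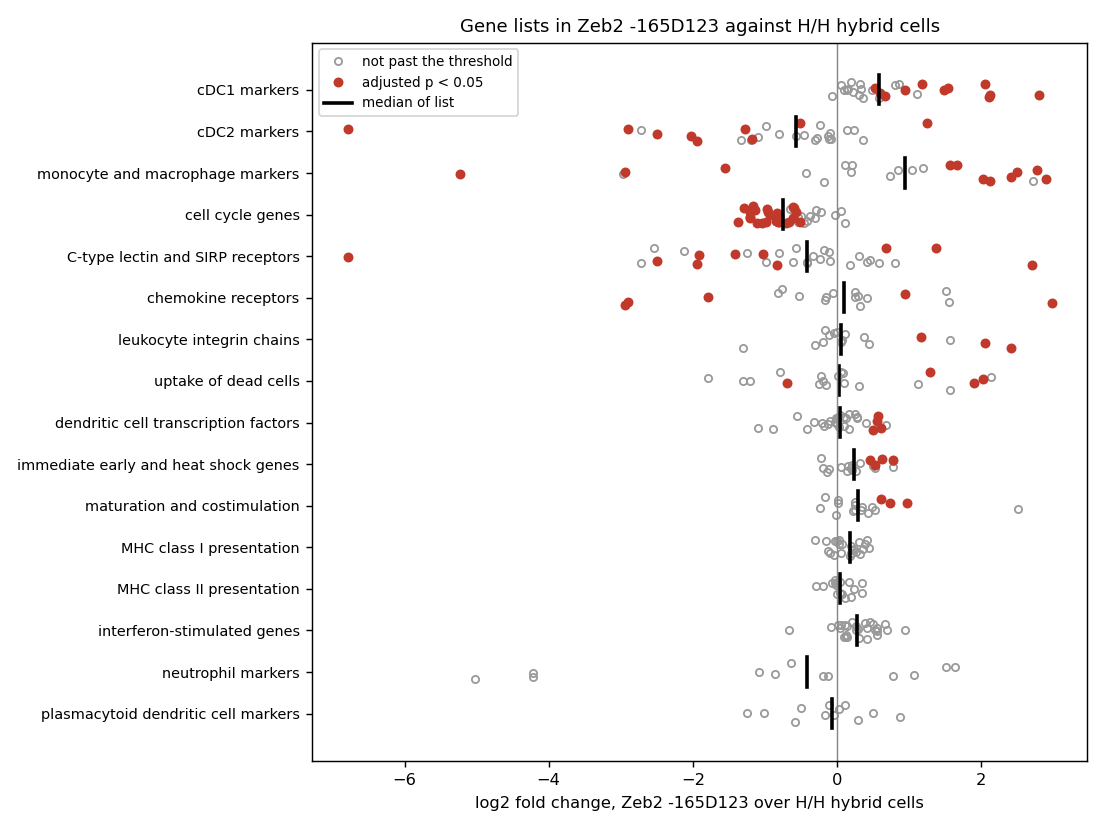
Log2 fold change of each tested member of 16 gene lists (points; filled where adjusted p was below 0.05; black bars are list medians), Zeb2 -165D123 over H/H hybrid cells. Cell cycle genes and cDC2 markers lie mostly to the left and cDC1 markers to the right; the point at the far left is Mgl2, whose fitted value depends on the prior count because it had no counts in Zeb2 -165D123 cells.

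The monocyte and macrophage list divided into genes that rose and genes that fell. All 22 of its genes were tested, 8 rose and 3 fell, beside 2.23% of all genes called higher and 1.79% called lower, and the median log2 fold change was 0.95. The 3 that fell, Ace, Ccr2 and Lyz2, are known from monocytes. Lyz2 had 226 and 207 CPM in Zeb2 -165D123 cells, against 593 and 683 CPM in H/H cells. F13a1, also known from monocytes, had 1 and 2 counts in the Zeb2 -165D123 libraries against 0.543 and 0.733 CPM in H/H cells, and was not called (adjusted p = 0.0549). Ly6c2, Cd14, Treml4 and Nr4a1, further genes of the list known from monocytes, were not called in either direction. The 8 that rose, C1qa, C1qb, C1qc, Cd5l, Cd163, Marco, Mertk and Vcam1, are known from tissue macrophages. Of all 22 genes 16 had a positive log2 fold change and 6 a negative one. C1qc, a chain of complement C1q (ENSMUSG00000036896, chromosome 4, 136889804 to 136893065, minus strand), had 38.2 and 42.8 CPM in Zeb2 -165D123 cells, against 7.28 and 4.57 CPM in H/H cells (log2 fold change 2.77 ± 0.233, adjusted p = 4.31e-06). C1qa had 39.7 and 42.5 CPM in Zeb2 -165D123 against 10.4 and 8.52 CPM in H/H cells, and C1qb had 156 and 159 CPM in Zeb2 -165D123 against 63.6 and 42.4 CPM in H/H cells. The groups did not overlap for the 3 C1q chains, which was so for every called gene and for 50.1% of all genes tested.

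Macrophage genes of the list for dead cell uptake rose in part, and Slc40a1, Spic and Adgre1 of the monocyte and macrophage list were not called. Timd4 and Axl, receptors for phosphatidylserine or its bridging proteins on dying cells, rose with Mertk, while Tgm2 was the 1 gene of the 20 tested for dead cell uptake that fell, beside 2.23% of all genes called higher and 1.79% called lower. With 1 library left out 2 genes of that list were called higher, and Tgm2 was called lower except without H/H replicate 1. Timd4 had 10.4 and 9.75 CPM in Zeb2 -165D123 cells, against 3.26 and 2.14 CPM in H/H cells (adjusted p = 0.000506). Slc40a1, the iron exporter, had 276 and 297 CPM in Zeb2 -165D123 against 58.9 and 28.4 CPM in H/H cells without passing the test (adjusted p = 0.0562). Spic, the factor of red pulp macrophages, had 50.1 and 72.9 CPM in Zeb2 -165D123 against 42.8 and 31.4 CPM in H/H cells (adjusted p = 0.467), and Adgre1 (F4/80) overlapped between the groups. The summed level of the 22 genes was 4134 and 4058 CPM in Zeb2 -165D123 and 3756 and 3452 CPM in H/H cells, and none was at 0 in any of the 4 libraries. Their part in the other changes was not tested. In WT cells of experiment 1 C1qc was lower in cDC1 than in cDC2 by 3.80 on the log2 scale, and its mean in H/H cDC1 of experiment 2 was 0.288 CPM. Without any 1 of the 4 libraries, 3 genes of the list were called higher and 3 lower. The call of Mertk was lost without replicate 1 of either group, and that of Axl without replicate 2 of either group.

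Among markers of other cell types, only the short NK cell and B cell lists held called genes. Of all 14504 genes tested, 2.23% were called higher and 1.79% lower, and 2327 had an unadjusted p below 0.05. Of the neutrophil, erythroid, platelet, T cell and plasmacytoid dendritic cell markers none was called by edgeR or DESeq2, with 0 of 12, 4 of 9, 0 of 4, 2 of 13 and 2 of 12 at an unadjusted p below 0.05. Of the 5 NK cell markers tested Klrk1 rose (lost without replicate 2 of either group), and of the 9 B cell markers Fcrla rose and Cd22 fell, the call of Cd22 being lost without replicate 1 of either group or H/H replicate 2. The summed neutrophil markers reached 30.3 and 14.2 CPM in Zeb2 -165D123 and 18.5 and 21.4 CPM in H/H cells. Of 9 erythroid genes tested 8 had a positive log2 fold change, and their sum was 212 and 153 CPM in Zeb2 -165D123 against 132 and 48.0 CPM in H/H cells. The part of erythroid transcripts in the other changes was not tested. Fcrla had 13.5 and 13.1 CPM in Zeb2 -165D123 and 5.70 and 4.01 CPM in H/H cells, and in WT cells of experiment 1 it was higher in cDC1 than in cDC2 by 4.60 on the log2 scale. Mitochondrially encoded genes took 1.38% and 1.05% of counts in Zeb2 -165D123 and 1.58% and 1.54% in H/H libraries, and none of the 16 tested was called by edgeR or DESeq2 (2 at an unadjusted p below 0.05).

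**Figure D3:**
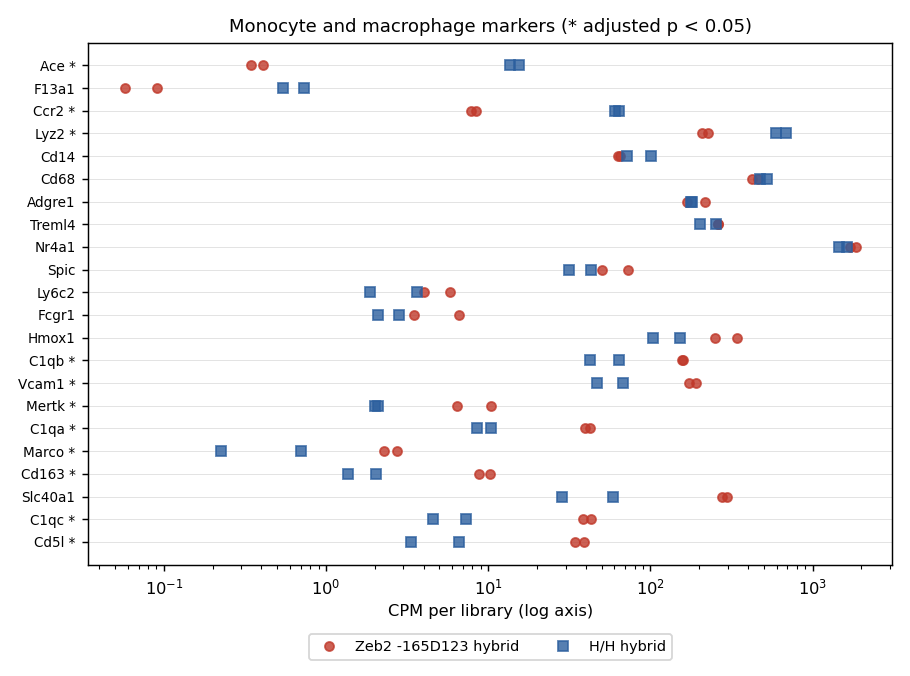
CPM per library on a log axis for the 22 monocyte and macrophage markers (circles, Zeb2 -165D123; squares, H/H hybrid cells; asterisks mark adjusted p below 0.05), ordered by log2 fold change. The circles lie to the left for Ace, Ccr2 and Lyz2 and to the right for the C1q chains, Cd163 and Cd5l.

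Cell cycle genes held the largest share of called members among the 32 lists. All 40 were tested, 27 fell, none rose (0 higher at an unadjusted p below 0.05 or by DESeq2), and 38 had a negative log2 fold change, against 1.79% of all genes called lower. Their median was -0.76. Mki67, which encodes the proliferation antigen Ki-67 (ENSMUSG00000031004, chromosome 7, 135689784 to 135716361, minus strand), had 41.2 and 37.7 CPM in Zeb2 -165D123 cells, against 101 and 81.1 CPM in H/H cells. It fell 2.30-fold (log2 fold change -1.20 ± 0.161, adjusted p = 0.000509) and was called without any 1 of the 4 libraries. Kif11, the spindle kinesin Eg5, had 8.97 and 11.0 CPM in Zeb2 -165D123 against 28.1 and 20.99 CPM in H/H cells. Top2a, topoisomerase II alpha, had 58.6 and 62.2 CPM in Zeb2 -165D123 against 135 and 104 CPM in H/H cells (log2 fold change -0.98). The mitotic genes Cenpe, Hmmr, Bub1 and Cenpf fell by 1.17 to 1.37 on the log2 scale.

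Genes of DNA replication and the G1 cyclins Ccnd1 and Ccne1 also belonged to the list. Mcm3, Mcm7, Rrm1, Rrm2 and Tyms fell by 0.52 to 0.61 on the log2 scale, while Mcm2, Mcm4, Mcm5 and Mcm6 were not called. Pcna had 96.3 and 88.8 CPM in Zeb2 -165D123 against 124 and 115 CPM in H/H cells (adjusted p = 0.111). Ccnd1, cyclin D1, had 92.0 and 75.4 CPM in Zeb2 -165D123 and 68.9 and 92.1 CPM in H/H cells, and Ccne1 had 3.56 and 2.59 CPM in Zeb2 -165D123 and 3.42 and 2.26 CPM in H/H cells. The groups overlapped for both cyclins. The summed level of the 40 genes was 1094 and 1108 CPM in Zeb2 -165D123 cells and 1857 and 1584 CPM in H/H cells. For 36 of the 40 genes both Zeb2 -165D123 libraries lay below all 10 other libraries of experiment 2 (90.0%), an order that 1082 of all 14504 genes tested also had (7.46%). The number called depended on the libraries, with 11 and 9 genes lower without Zeb2 -165D123 replicate 1 and replicate 2, 5 without H/H replicate 1 and 21 without H/H replicate 2. The calls of Cenpe and Hmmr were lost without either Zeb2 -165D123 library or H/H replicate 1.

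**Figure D4:**
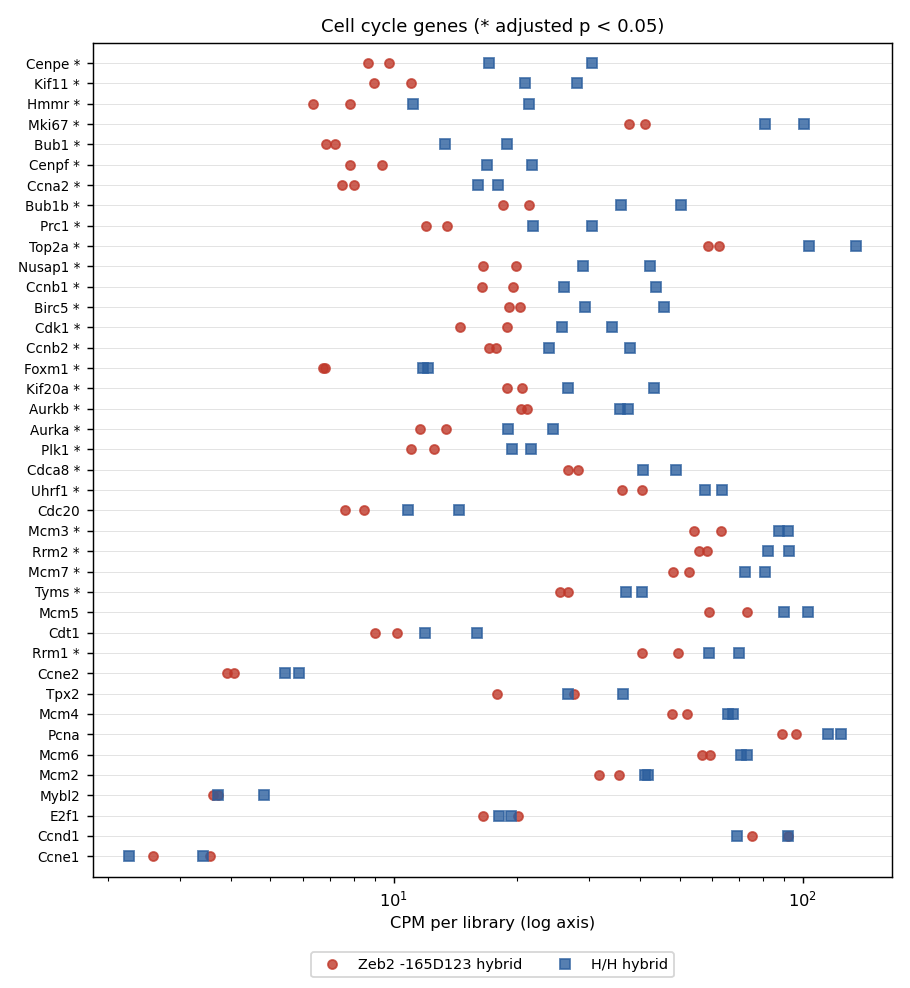
CPM per library on a log axis for the 40 cell cycle genes (circles, Zeb2 -165D123; squares, H/H hybrid cells; asterisks mark adjusted p below 0.05), ordered by log2 fold change. The circles lie to the left of the squares for 36 of 40 genes (24.8% of all genes tested had that order), and the groups overlap for Tpx2, E2f1, Ccnd1 and Ccne1.

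Promoters of Mki67 and Kif11 are shown because cell cycle genes that peak late in the cycle commonly carry a CHR element, bound by the MuvB complexes, together with CCAAT boxes, bound by NF-Y. Each window (RefSeq, GRCm38.p6) runs 5′ to 3′ along the gene, from 250 bases before the start site to 50 after it. Capitals mark TTTGAA (CHR) and CCAAT on either strand, and none of the marked motifs overlap each other. The Mki67 window is chr7:135716330-135716629, minus strand, and the Kif11 window is chr19:37376132-37376431, plus strand.
Mki67: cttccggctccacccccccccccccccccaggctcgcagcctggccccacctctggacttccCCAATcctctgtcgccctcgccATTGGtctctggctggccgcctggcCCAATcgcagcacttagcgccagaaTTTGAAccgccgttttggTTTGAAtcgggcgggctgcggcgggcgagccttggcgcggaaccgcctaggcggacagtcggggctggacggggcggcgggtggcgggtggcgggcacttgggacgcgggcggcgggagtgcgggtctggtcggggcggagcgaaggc
Kif11: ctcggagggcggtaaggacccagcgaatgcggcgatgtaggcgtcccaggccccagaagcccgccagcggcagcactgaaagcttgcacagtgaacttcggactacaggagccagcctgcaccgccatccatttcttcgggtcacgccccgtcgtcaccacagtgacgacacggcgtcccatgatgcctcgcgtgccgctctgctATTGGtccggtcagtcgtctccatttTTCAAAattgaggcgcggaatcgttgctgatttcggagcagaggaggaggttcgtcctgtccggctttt

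The Mki67 window held 2 CHR matches and 3 CCAAT boxes, and the Kif11 window held 1 of each. Of the 27 cell cycle genes that fell, 23 had a promoter in the table, and 12 of these held a CHR match (52.2%) and 20 a CCAAT box (87.0%). Of the 32 cell cycle genes tested with a promoter, called or not, 14 held a CHR match (43.8%) and 25 a CCAAT box (78.1%), and of 21 cDC1 markers 8 held a CHR match (38.1%). Over all 9930 genes tested that had a promoter, the shares were 15.1% for CHR and 43.4% for CCAAT. Among all genes called lower the CHR share was 38.9% of 203, and among those called higher it was 17.0% of 241.

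The E-box CACCTG, which ZEB proteins are known to bind, was counted in the same windows on both strands. It was present in 29.0% of the 241 genes called higher, in 11.3% of the 203 called lower and in 20.3% of all 9930. Among cDC1 markers it was present in 3 of 21 tested (14.3%) and in 1 of the 7 that were called (14.3%). Among cell cycle genes it was present in 2 of 32 tested (6.25%). It was present in 2 of the 23 cell cycle genes called (8.7%), which are part of the 203 called lower. A gene could have several windows, with a mean of 1.34 among the higher, 1.23 among the lower and 1.27 over all. Of the 80 genes picked for naming, 63 had a promoter, and 6 that were called higher held the letters. The picked genes that were called higher and had a promoter were not counted, so the 6 have no share to set beside 20.3%. The promoters of Slpi, of the keratin gene Krt18, a gene that ZEB proteins repress in epithelia, and of Fcrla are shown as examples from genes that rose, with the E-box in capitals. They lie at chr2:164356458-164356757 on the minus strand, chr15:102027966-102028265 on the plus strand and chr1:170927534-170927833 on the minus strand.
Slpi: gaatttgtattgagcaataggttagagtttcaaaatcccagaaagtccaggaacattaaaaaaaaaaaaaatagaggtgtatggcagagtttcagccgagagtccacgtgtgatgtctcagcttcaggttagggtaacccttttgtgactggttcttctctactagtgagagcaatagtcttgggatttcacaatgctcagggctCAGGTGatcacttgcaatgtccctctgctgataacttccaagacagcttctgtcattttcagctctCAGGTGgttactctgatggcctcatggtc
Krt18: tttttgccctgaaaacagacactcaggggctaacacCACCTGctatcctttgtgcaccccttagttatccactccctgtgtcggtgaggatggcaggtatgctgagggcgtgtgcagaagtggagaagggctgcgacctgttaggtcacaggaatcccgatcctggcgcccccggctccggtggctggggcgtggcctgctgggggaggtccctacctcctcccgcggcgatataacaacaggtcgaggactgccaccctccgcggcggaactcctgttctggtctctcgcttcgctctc
Fcrla: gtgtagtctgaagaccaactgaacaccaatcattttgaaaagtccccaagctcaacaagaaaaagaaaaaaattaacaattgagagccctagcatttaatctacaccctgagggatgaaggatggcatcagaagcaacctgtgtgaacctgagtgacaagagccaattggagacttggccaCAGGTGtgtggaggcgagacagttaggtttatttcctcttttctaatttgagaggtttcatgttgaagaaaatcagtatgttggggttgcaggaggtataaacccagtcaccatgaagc

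Krt18 had 4.20 and 3.68 CPM in Zeb2 -165D123 cells, against 1.09 and 1.07 CPM in H/H cells (adjusted p = 0.0151, lost without any of the 4 libraries). It belonged to a list of 23 classical ZEB target genes, which held epithelial genes and also others, among them Vim, Cdh2, Fn1, Itga5 and Spn. Of the list 11 genes were tested, 2 rose and 2 fell, beside 2.23% and 1.79% of all genes. The 2 that rose are epithelial genes, and the 2 that fell are not. With 1 library left out 1 was called higher and 0 or 1 lower (1 and 0 without Zeb2 -165D123 replicate 2). Cldn1, a tight junction protein, was the other that rose, to 20.2 and 21.5 CPM in Zeb2 -165D123 against 7.55 and 5.08 CPM in H/H cells (log2 fold change 1.72 ± 0.237, adjusted p = 0.000616). Fn1 (fibronectin), with 2 and 1 counts in Zeb2 -165D123 cells and 1.09 and 1.02 CPM in H/H cells, and Spn (CD43) fell. The call of Fn1 was lost without any 1 of the 4 libraries and under DESeq2, and that of Spn without all but Zeb2 -165D123 replicate 1.

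Regulators and signalling genes of dendritic cells were called in part. Of 30 transcription factors and related genes tested 4 rose and none fell, namely Irf8, Relb, Flt3 and Spi1, beside 2.23% of all genes called higher, and 0 or 1 were called with 1 library left out (0 without Zeb2 -165D123 replicate 2). Relb, an NF-kB subunit, had 86.3 and 87.1 CPM in Zeb2 -165D123 against 57.0 and 56.8 CPM in H/H cells (adjusted p = 0.0348). Flt3, the receptor for the growth factor of dendritic cells, had 370 and 360 CPM in Zeb2 -165D123 against 250 and 242 CPM in H/H cells (adjusted p = 0.0124). The calls of Relb and Flt3 were lost without any 1 of the 4 libraries, and that of Spi1 without either Zeb2 -165D123 library or H/H replicate 1. Zbtb46, which conventional dendritic cells share, had 70.4 and 68.7 CPM in Zeb2 -165D123 against 51.4 and 53.5 CPM in H/H cells (adjusted p = 0.0556). Of 18 maturation genes 3 rose (0 or 1 with 1 library left out), namely the actin bundler Fscn1, the amino acid oxidase Il4i1 and Relb, and the calls of Fscn1 and Il4i1 were lost without H/H replicate 1 among others. Notch4 rose to 10.5 and 10.9 CPM in Zeb2 -165D123 against 3.69 and 5.87 CPM in H/H cells, as 1 of 14 Notch genes tested beside 2.23% of all genes, a call lost without Zeb2 -165D123 replicate 2 or H/H replicate 1.

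Immediate early genes, which can respond to tissue handling, were partly higher. Of 20 early and heat shock genes tested Jun, Junb, Ier2 and Dusp1 rose and none fell, beside 2.23% of all genes called higher. Junb, an AP-1 subunit, had 252 and 233 CPM in Zeb2 -165D123 against 117 and 167 CPM in H/H cells (adjusted p = 0.00993). Fos, its partner, had 2334 and 1970 CPM in Zeb2 -165D123 against 2561 and 2201 CPM in H/H cells (adjusted p = 0.584), so the groups overlapped. Each of the 4 calls was lost without H/H replicate 1, and 1 gene of the list was called without replicate 1 of Zeb2 -165D123 and 1 without replicate 2.

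Antigen presentation and interferon genes were not called. None of 23 genes of MHC class I presentation, 18 of MHC class II presentation or 28 interferon-stimulated genes passed edgeR's test. By that test 6, 2 and 5 of them had an unadjusted p below 0.05, and DESeq2 called 0, 0 and 1. Over all 14504 genes tested, 4.03% were called and 2327 had an unadjusted p below 0.05. Ciita, the master regulator of MHC class II genes, had 850 and 823 CPM in Zeb2 -165D123 against 748 and 802 CPM in H/H cells. Irf7, an interferon-inducible factor, had 258 and 463 CPM in Zeb2 -165D123 and 257 and 254 CPM in H/H cells, so the Zeb2 -165D123 libraries differed from each other. Without Zeb2 -165D123 replicate 1, 8 interferon-stimulated genes were called higher.

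The genes called were next placed on the distance between WT cDC1 and WT cDC2, measured in libraries of experiment 1 that the comparison did not use. There, 20.5% of 16036 genes were higher in cDC1 and 23.4% were higher in cDC2. Of the 320 genes higher in Zeb2 -165D123 cells that were tested in both experiments, 137 were higher in cDC1 (42.8%) and 89 in cDC2 (27.8%). Of the 260 lower genes, 30 were higher in cDC1 (11.5%) and 101 in cDC2 (38.8%). Over all 14347 genes tested in both, the shares were 22.7% and 22.99%. Of the 128 genes that fell at least 2-fold, 68 were higher in cDC2 (53.1%) and 6 in cDC1 (4.69%). Of the 154 that rose at least 2-fold, 48 were higher in cDC1 (31.2%) and 60 in cDC2 (39.0%). Pearson r between the contrasts was 0.167 and Spearman rho 0.125 across the 14347 genes, whose levels depend on one another.

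The placement was repeated with each of the 4 libraries left out, an alternative chosen after seeing the data. Of the genes then called lower, 35% to 58.5% were higher in cDC2 and 1.89% to 13.2% in cDC1. Of those called higher, 38.7% to 50.5% were higher in cDC1 and 27.6% to 38.7% in cDC2, the shares being equal (29 of 75 each) without H/H replicate 1. Without Zeb2 -165D123 replicate 2, the library with Xist, 50 of 99 lower genes were higher in cDC2 (50.5%) and 6 in cDC1 (6.06%), and 55 of 109 higher genes were higher in cDC1 (50.5%) and 37 in cDC2 (33.9%). The order of the shares among rises of at least 2-fold depended on the library left out. Without replicate 2 of Zeb2 -165D123 44.6% were higher in cDC1 and 42.2% in cDC2, and without H/H replicate 2 the shares were 44.4% and 30.9%. Without Zeb2 -165D123 replicate 1 they were 35.6% and 37.8%, and without H/H replicate 1 they were 36.1% and 40.3%.

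Genes lower in H/H hybrid cells than in H/H cDC1 in experiment 1 rose in part, while those higher in hybrid cells moved in both directions. At least 2-fold differences were called for 94 genes lower in hybrid cells than in cDC1 (0.586%) and for 497 higher (3.1%). Of the 94, 27 rose in Zeb2 -165D123 hybrid cells (28.7%) and 1 fell, and their median log2 fold change was 0.75. Of 470 genes higher in H/H hybrid cells that were tested in both experiments, 55 fell (11.7%) and 44 rose (9.36%), with a median of -0.17. Over all 14347 genes tested in both, 2.23% rose and 1.81% fell. Across those genes Pearson r between the contrasts was -0.087 and Spearman rho -0.045. With 1 library left out, 12 to 15 of the 94 rose and none fell (15 without Zeb2 -165D123 replicate 2). Of the genes higher in H/H hybrid cells, 24 to 34 then fell and 17 to 26 rose (34 and 26 of 480 without Zeb2 -165D123 replicate 2). The difference between the sets was not tested.

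**Figure D5:**
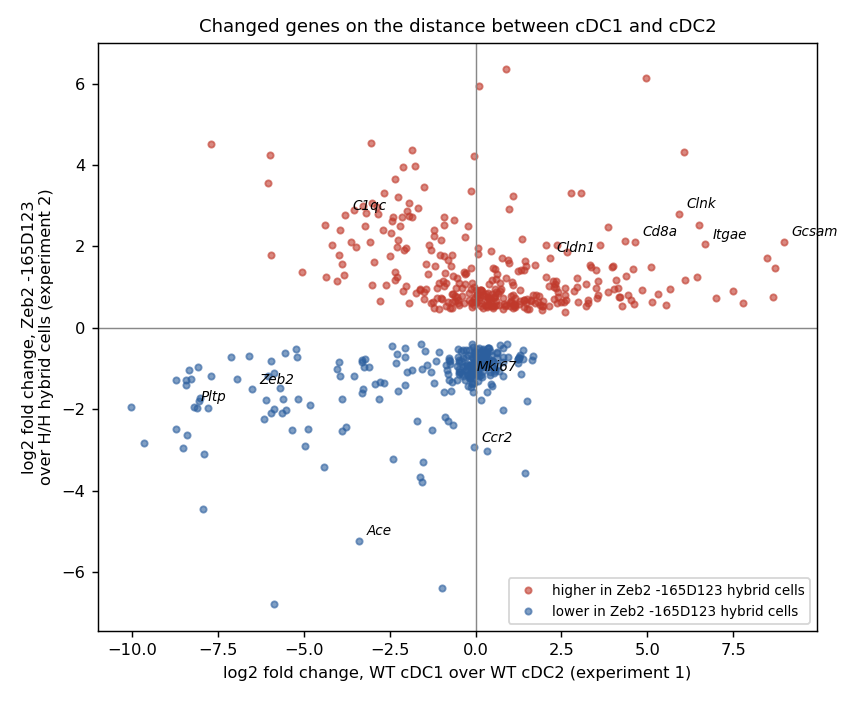
Log2 fold change of Zeb2 -165D123 over H/H hybrid cells (vertical) against that of WT cDC1 over WT cDC2 in experiment 1 (horizontal) for the called genes tested in both experiments. Most strong falls lie on the cDC2 side, Mki67 and Ccr2 lie near 0 on the horizontal axis, and rises lie on both sides, with Clnk and Gcsam to the right and C1qc to the left.

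Loss of Nfil3 is the other change of genotype made in H/H hybrid cells, and the 2 genotypes were contrasted directly because both share the H/H libraries as their control. The Nfil3-/- hybrid libraries also came from different sexes by Xist and Ddx3y. Replicate 1 had 2 Xist and 1400 Ddx3y counts, and replicate 2 had 4240 and 1. Between Zeb2 -165D123 and Nfil3-/- hybrid cells 827 genes were higher in Zeb2 -165D123 (5.7%) and 757 lower (5.22%). Zeb2 stood at 14.9 ± 6.55 CPM in Zeb2 -165D123, 23.7 ± 5.87 CPM in Nfil3-/- and 42.8 ± 5.89 CPM in H/H hybrid cells, and the first 2 were not separated by the test (log2 difference -0.66 ± 0.259, adjusted p = 0.122). Ccr2 averaged 8.10 ± 0.407 CPM in Zeb2 -165D123, against 65.0 ± 4.78 CPM in Nfil3-/- cells and 62.4 ± 2.62 CPM in H/H cells. Its log2 difference from Nfil3-/- cells was -3.00 ± 0.159 (adjusted p = 9.37e-09).

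cDC1 markers differed in both directions between the altered genotypes, with 9 of 27 higher and 7 lower in Zeb2 -165D123 cells. For this list and those below, 5.7% of all genes were called higher and 5.22% lower in the same contrast. Clnk averaged 19.4 ± 0.218 CPM in Zeb2 -165D123, 10.2 ± 0.0242 CPM in Nfil3-/- and 2.77 ± 0.0745 CPM in H/H cells. Cd8a averaged 25.4 ± 9.93 CPM in Zeb2 -165D123, 3.03 ± 0.163 CPM in Nfil3-/- and 5.85 ± 0.901 CPM in H/H cells (adjusted p = 0.000106 between the altered genotypes). Itgae was lower in Zeb2 -165D123 than in Nfil3-/- cells (212 ± 63.7 CPM in Zeb2 -165D123 against 349 ± 85.3 CPM in Nfil3-/- cells, adjusted p = 0.0306). Of the 40 cell cycle genes 33 were lower in Zeb2 -165D123 than in Nfil3-/- cells and none higher, and Mki67 averaged 39.5 ± 2.49 CPM in Zeb2 -165D123 against 81.5 ± 5.08 CPM in Nfil3-/- cells. Of the 22 monocyte and macrophage markers 10 were higher and 4 lower, and C1qc averaged 40.5 ± 3.22 CPM in Zeb2 -165D123 against 6.59 ± 1.77 CPM in Nfil3-/- cells. Of 12 neutrophil markers 6 were lower in Zeb2 -165D123, and the summed 14 markers reached 30.3 and 14.2 CPM in Zeb2 -165D123 against 67.5 and 122.5 CPM in Nfil3-/- libraries. The part of these transcripts in the contrast was not tested.

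The genes whose levels followed Zeb2 most closely over the 12 libraries of experiment 2 were Ssh2, Stard9, Igsf6, Tent5a and Gngt2, with Pearson r of 0.984, 0.980, 0.979, 0.973 and 0.970 among 7703 genes with a mean of at least 10 CPM. These libraries include cDC1, in which Zeb2 is low, so the correlation follows cell type as well as genotype. Igsf6, an immunoglobulin superfamily protein, had 251 and 269 CPM in Zeb2 -165D123 against 350 and 341 CPM in H/H cells (adjusted p = 0.0423, lost without any 1 of the 4 libraries). Gngt2, a G protein gamma subunit, had 74.4 and 75.8 CPM in Zeb2 -165D123 against 95.5 and 84.7 CPM in H/H cells and was not called (adjusted p = 0.288).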

How the data were processed

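RNA of sorted splenic dendritic cells was measured by bulk RNA-seq, and the deposited values are expected counts per Ensembl gene, 1 table per experiment, with no step of scaling by the authors stated. Per the labels' protocols, cDNA was made with a SMARTer Ultra Low kit, and per the submitters' processing notes bcl2fastq, DRAGEN and edgeR were used, while genome build, annotation and settings are not given in the sources used here. Expected counts were rounded, and 287 repeated lines were dropped, leaving 55487 genes, of which 99.4% were found in GENCODE M21 (GRCm38), the source of gene coordinates.

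All 12 libraries of experiment 2 were fitted with 1 coefficient per group in edgeR 4.0.16 (R 4.3.3), after filterByExpr with the groups and TMM scaling (factors 0.962 to 1.032). Robust quasi-likelihood F tests had 6 residual degrees of freedom per gene, genes had a median biological coefficient of variation of 0.138, and p was adjusted by Benjamini-Hochberg over all genes tested, with a threshold of 0.05. Experiment 1 was fitted in the same way on 16036 genes. The SE given for a fold change on the log2 scale was taken as the fold change over the square root of F, without sign. Fitted log2 fold changes used edgeR's default prior, and log2 CPM a prior count of 2. On simulated counts for 14287 genes with these libraries' means, 86% of genes changed 2-fold and 100% of those changed 4-fold were recovered, and 7.46% of calls were false. Changes were placed only in genes above a floor of mean CPM, so the shares recovered do not cover genes with low counts.

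Named were 15 fixed genes, the 12 largest rises and 12 largest falls among called genes with at least a 2-fold change, 10 CPM in the higher group and no overlap, up to 4 called members of each of 32 gene lists, and the 5 genes most like Zeb2. Other list members were named after their values were seen, and some genes that the rule names are not reported here. The members and lists were chosen with earlier results of these data known. Alternatives were DESeq2 1.42.0, other scaling, no filter, other sets of libraries, a replicate block, a term for libraries with Xist and leaving out each library, the last of these for the placement between WT lineages being chosen after seeing the data.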

Additional observations from a re-analysis of the deposited data

How the results depend on the processing

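Against 324 genes higher and 260 lower in Zeb2 -165D123 than in H/H hybrid cells, the lower count moved beyond 1.5 times without the filter on low counts (426) and in a fit of both experiments (416), where the higher counts were 474 and 457. DESeq2's Wald test gave 356 and 295, DESeq2 size factors in edgeR 317 and 264, the 4 libraries alone 394 and 274, and a term for libraries with Xist 268 and 203. Leaving out 1 library gave 75 to 140 higher and 53 to 141 lower, and in the contrast with Nfil3-/- hybrid cells 270 to 479 higher and 325 to 484 lower, and the lone sample left is assumed there to vary like the other groups. Of the 70 named genes that were called, 46 were called in each of the 7 alternatives that kept all libraries, and fewer in all 11. The cause of the losses was not tested. All 70 kept their direction in the 11 alternatives. That outcome was largely set in advance, since no called gene overlapped between the groups and the alternatives reused the same libraries. Nfil3, log2 fold change 0.0043, turned to -0.00192 under DESeq2 size factors, -0.00191 under DESeq2, -0.021 without the filter and -0.010 in both experiments, and ranged from -0.20 to 0.22 with 1 library left out, being -0.097 without Zeb2 -165D123 replicate 1; Irf4, at 0.24, ranged from -0.033, without that library, to 0.45. The labels do not say what equal replicate numbers share, and over 14020 genes the deviations of same-numbered Zeb2 -165D123 and H/H libraries had a correlation of -0.015. With the replicate block 272 genes were higher and 229 lower. The median over all genes stayed between -0.032 and 0.0066 in these alternatives. Counting depth limits genes near the floor of 3 counts, which is 0.136 to 0.172 CPM in the 4 libraries, and covers counting error only.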

Other observations

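Upp1 (uridine phosphorylase) and Abca13, an ABC transporter, lie close together on chromosome 11 of GRCm38 (9118103 to 9136170 and 9191942 to 9684259, both on the plus strand), and their levels split the 12 libraries of experiment 2 in the same way. Upp1 had 19.1 and 13.5 CPM in Zeb2 -165D123 hybrid cells, 44.5 and 21.1 CPM in Nfil3-/- hybrid cells and 21.8 and 8.93 CPM in Nfil3-/- cDC1. It had 0.760 and 0.959 CPM in H/H hybrid cells, 2.87 and 1.74 CPM in H/H cDC1 and 0.951 and 1.03 CPM in WT cDC1. Abca13 had 17.0 and 11.9 CPM in Zeb2 -165D123 hybrid cells, 37.95 and 13.8 CPM in Nfil3-/- hybrid cells and 23.4 and 9.44 CPM in Nfil3-/- cDC1, against 1.40 to 2.501 CPM in the 6 libraries without a second altered locus. All 6 libraries that carry a second altered locus thus stood above all 6 that do not, in both cell types. Of the 6 genes tested within 1 Mb of the pair, the other 4 were not called in Zeb2 -165D123 hybrid cells, among them Hus1 upstream (4.94 and 5.17 CPM, against 6.79 and 4.63 CPM in H/H hybrid cells). No cause for the shared pattern was tested, and Upp1 and Abca13 were looked at together after their values had been seen.

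Ccr2 and Mki67 changed, while WT cDC1 and WT cDC2 did not differ in them by the test. Ccr2 differed by -0.05 and Mki67 by -0.18 on the log2 scale between WT cDC1 and WT cDC2 (adjusted p = 0.925 and 0.472), whereas Ccr2 fell 7.69-fold and Mki67 2.30-fold in Zeb2 -165D123 hybrid cells. Of the 40 cell cycle genes 7 were higher and 1 lower in WT cDC1 than in WT cDC2, beside 20.5% and 23.4% of all genes. Sirpb1a, Pltp and Tlr7 were lower in WT cDC1 than in WT cDC2 by 10.05, 8.21 and 8.45 on the log2 scale and also lower in Zeb2 -165D123 than in H/H hybrid cells by 1.95, 1.94 and 1.27 on the same scale.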
